A study of Ascaris suum with 9 samples.

Results

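A set of 46 genes of Ascaris suum, among 17974 in the count table, stood higher in larvae exposed to red clover extract than in control larvae and in larvae exposed to biochanin A. The members were chosen by their measured values in all 9 libraries, so their differences between the groups are given as a description and not as findings. The values are read counts scaled to library size (CPM) after TMM scaling, which adjusts library sizes so that most genes keep the same level. A member had a mean of at least 5 CPM with extract and a log2 ratio of extract over control of at least 0.35, computed on mean CPM plus 0.5. Its log2 ratio of biochanin A over control was at most 0.1, and each of the 3 extract libraries lay above each of the other 6 libraries. Identifiers beginning AgE and the 150 genes with the highest control CPM were to be left out, which removed no gene that passed the other limits.

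The study exposed A. suum larvae, described in the labels as whole organisms, for 3 hours in 3 groups of 3 libraries. The control group received solvent, the second group biochanin A at 100 µM, and the third red clover extract at 200 µg/mL. The 2 treated groups were compared at these doses, which are not matched, and the biochanin A content of the extract was not stated. The larval stage, the number of larvae per library, the solvent and whether the replicates came from separate batches are not stated in the sources used here. The p-values behind the counts of called genes therefore reflect the spread between these libraries alone, which can be technical. RNA came from whole larvae, so more cells of a type and more RNA per cell cannot be told apart. Library totals ran from 44324212 to 53786882 counts, and 1 CPM corresponded to 41.3 to 51.6 reads after scaling.

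Ascaris suum is the large roundworm of pigs, whose larvae migrate through the host before the adults settle in the small intestine. Red clover makes isoflavones, among them biochanin A and formononetin, together with many other compounds, so that an extract is a mixture while biochanin A is a pure constituent. Nematodes answer foreign compounds with enzymes that oxidise, conjugate and export them, a response best known from Caenorhabditis elegans. The rule picks genes whose level differed between the mixture and the pure compound at the doses used. The table gives identifiers without gene names, and no annotation was used here, so no member can be given a role.

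Most genes that stood higher with extract also stood higher with biochanin A. Of 10376 genes with at least 5 CPM in the extract group, 999 reached the log2 ratio of 0.35 and 877 of these had all extract libraries above all control libraries. Only 47 of the 877 met the limit of 0.1 for biochanin A, and 46 of these (5.25% of the 877) also had every extract library above every biochanin A library. Without AgE identifiers and the 150 genes, 852 of the 877 were left, and their median log2 ratio with biochanin A was 0.74, with quartiles of 0.48 and 1.08. The 46 members had a median of -0.03, a lowest value of -1.22 and a highest of 0.10. With the treatments exchanged, the same rule found 198 genes for biochanin A. The mirrored rule for genes lower with extract, with the CPM minimum set on the control, found 88.

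**Figure D1:**
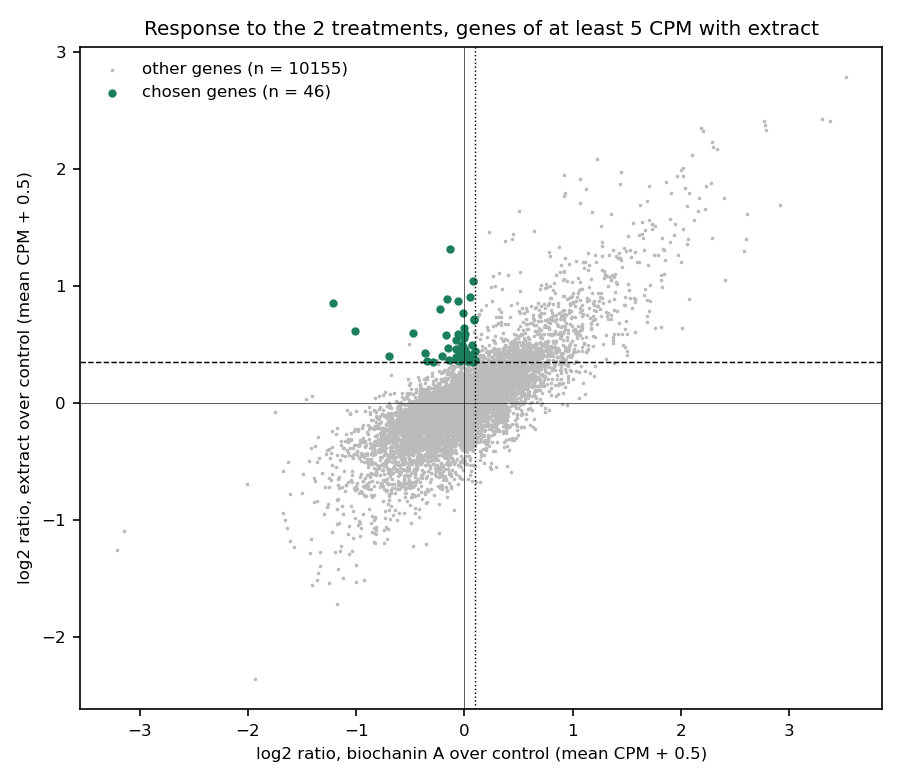
Log2 ratio of extract over control against that of biochanin A over control, on mean CPM plus 0.5, for the genes of at least 5 CPM with extract outside the AgE identifiers and the 150 genes of highest control CPM. Green points are the 46 chosen genes, grey points the other 10155, and the dashed and dotted lines the limits of 0.35 and 0.1; the chosen genes form a thin edge beside a cloud in which the ratios of the 2 treatments run together.

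The members differed from control by modest amounts. Their median log2 ratio with extract was 0.46, a 1.38-fold difference, and the range was 1.28-fold to 2.5-fold. Only 2 members reached 2-fold, 16 reached 1.5-fold and 30 stayed under 1.5-fold, all on mean CPM plus 0.5. The median log2 ratio over all 10201 genes of at least 5 CPM was 0.0026. Summed over the 46 members, the level was 1726 ± 39.0 CPM in control, 1660 ± 28.5 CPM with biochanin A and 2504 ± 54.1 CPM with extract (mean ± SD, n = 3 each). The 46 members made up 0.184% to 0.193% of the counts of a control library, 0.152% to 0.160% with biochanin A and 0.234% to 0.260% with extract. The member with the fewest reads, AgR003_g034, had 58 to 262 reads per library.

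In edgeR's quasi-likelihood test over all 15177 genes tested, 34 of the 46 members were called higher with extract than with control at an adjusted p below 0.05, against 9.34% of all genes tested. Another count of 34 was called higher with extract than with biochanin A, against 7.37% of all genes, and 32 members were called in both. The rule used both contrasts, so nothing is read from these counts. The 12 members not called against control had 5.03 to 22.3 CPM with extract, and 8 of them were under 10 CPM, as were 2 of the 34 that were called. The 34 make up 2.40% of the 1418 genes called higher with extract than with control.

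**Figure D2:**
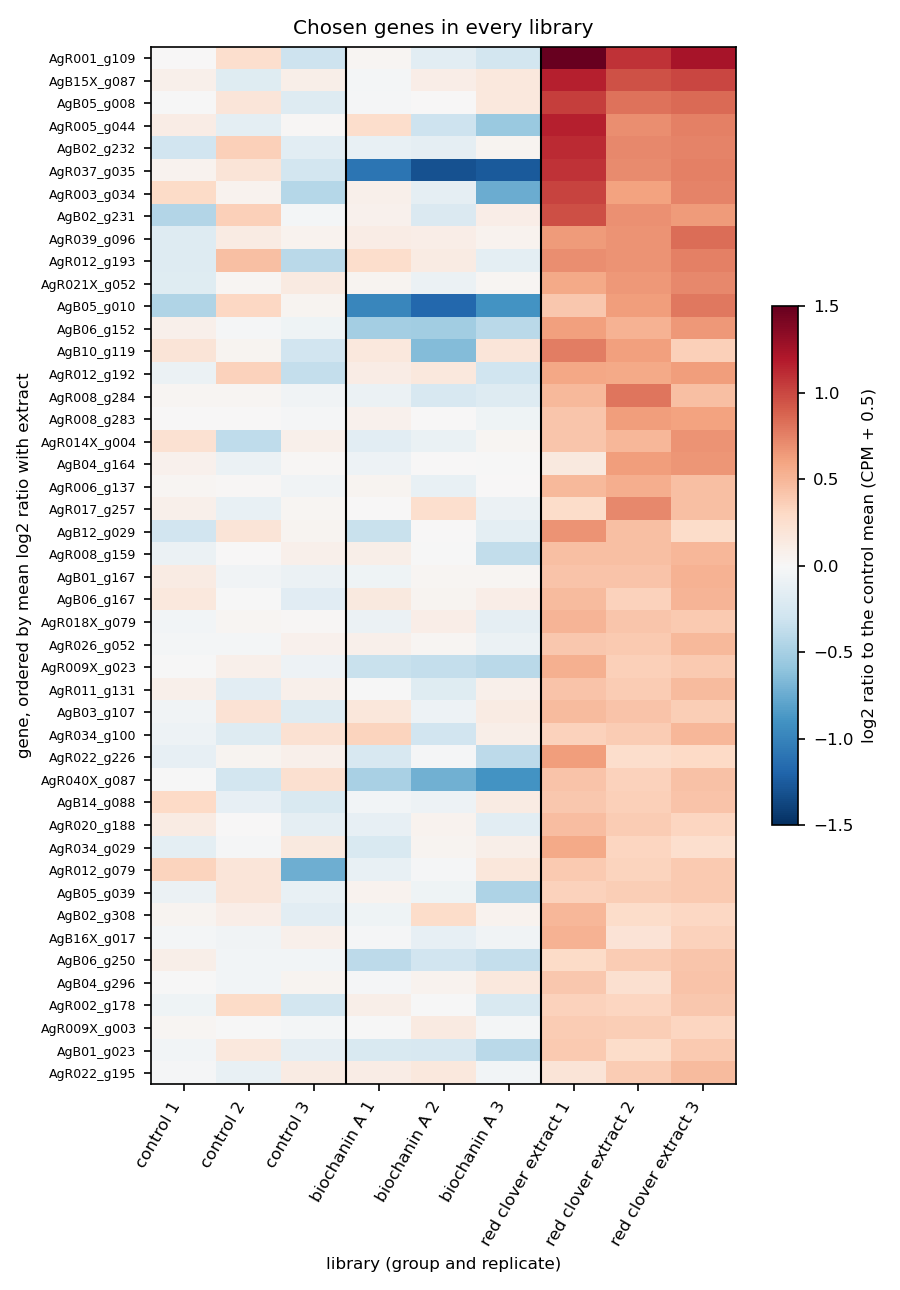
Log2 ratio of each library to the control mean (CPM plus 0.5) for the 46 chosen genes, ordered by the ratio with extract, with 3 control, 3 biochanin A and 3 extract libraries as columns. Every extract column lies above the other 6 in each row, as the rule requires, and the biochanin A columns are near 0 in most rows and well below 0 in a few, AgR037_g035 lowest.

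The gene with the largest ratio was AgR001_g109. It stood at 13.3, 15.8 and 10.5 CPM in the control libraries, at 13.4, 11.7 and 10.8 CPM with biochanin A, and at 40.9, 28.5 and 31.8 CPM with extract. The extract libraries were far apart from the rest: the lowest of them was 1.80 times the highest of the other 6, the widest gap among the members. The log2 ratio was 1.32 with extract and -0.13 with biochanin A.

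AgB15X_g087 was the other member at over 2-fold. Its control libraries had 99.8, 83.2 and 100.0 CPM, its biochanin A libraries 92.7, 101.4 and 105.7 CPM, and its extract libraries 212.8, 183.6 and 188.9 CPM. Control and biochanin A overlapped, while the lowest extract library was 1.74 times the highest of the others. The group means were 94.4 ± 9.6, 99.9 ± 6.6 and 195.1 ± 15.5 CPM (SD, n = 3 each), a log2 ratio of 1.04 with extract and 0.08 with biochanin A.

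AgB05_g008 stood at 13.2, 15.1 and 11.5 CPM in control, 13.1, 13.3 and 14.9 CPM with biochanin A, and 27.8, 23.7 and 24.3 CPM with extract. The log2 ratio with extract was 0.91, and the biochanin A libraries lay within the range of the control libraries. AgR005_g044 stood at 4.23, 3.44 and 3.93 CPM in control, at 4.73, 3.03 and 2.47 CPM with biochanin A, and at 9.31, 6.59 and 6.84 CPM with extract (log2 ratio 0.89). Here the biochanin A libraries spread on either side of the control libraries, and the extract group remained apart from both. AgR003_g034 was low throughout, at 3.40, 2.80 and 1.86 CPM in control, 2.85, 2.40 and 1.41 CPM with biochanin A, and 5.95, 4.36 and 4.84 CPM with extract (log2 ratio 0.80). It was also among the members closest to the minimum of 5 CPM, with a mean of 5.05 CPM.

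**Figure D3:**
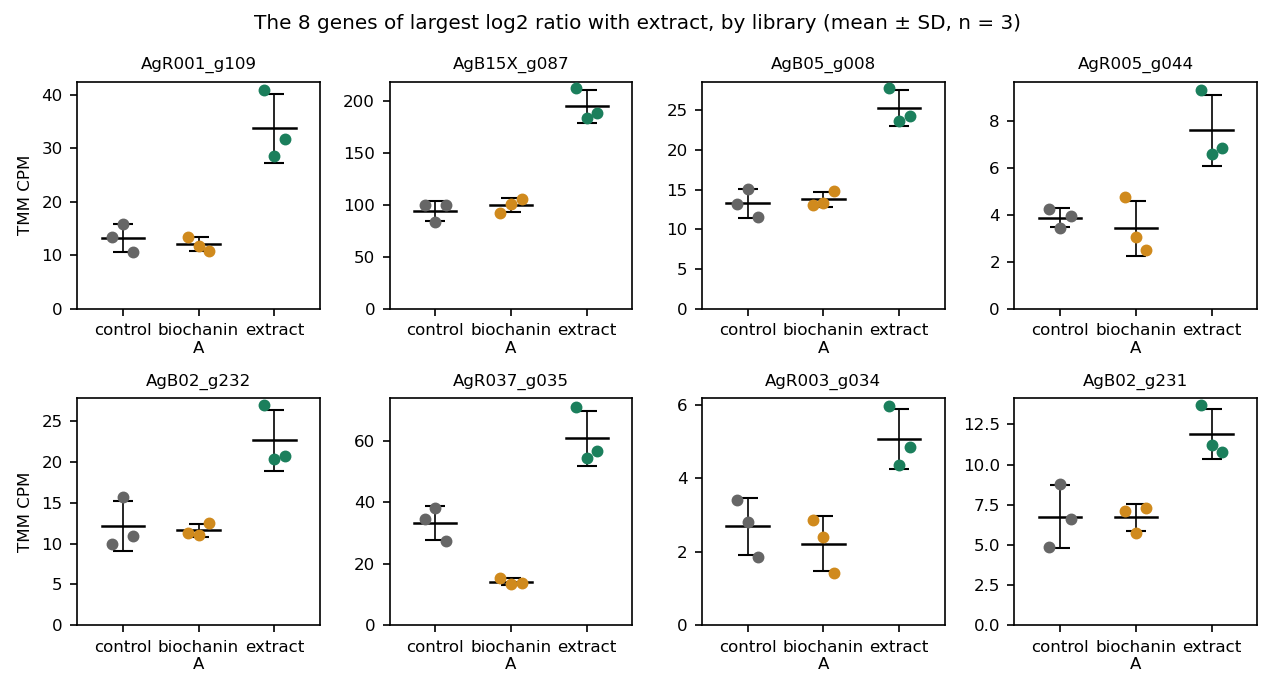
TMM-scaled CPM in every library for the 8 members of largest log2 ratio with extract; points are libraries in replicate order, long bars group means and error bars the SD (n = 3). The first extract point is the highest of its group in all 8 panels, and AgR037_g035 is the gene whose biochanin A points lie far below its control points.

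The order among the extract libraries was not used by the rule. Extract replicate 1 was the highest extract library for all 8 members of largest ratio, and for 12 of the remaining 38, while replicate 2 was highest for 4 and replicate 3 for 22 of those 38. Over all 10201 genes of at least 5 CPM the shares were 39.4% for replicate 1, 27.5% for replicate 2 and 33.1% for replicate 3. For the 8 genes, the log2 ratio of a library to the control mean had a median of 1.10 in replicate 1, 0.71 in replicate 2 and 0.76 in replicate 3, and its lowest value in any of these genes was 0.61, in replicate 2. Over all 46 members the medians were 0.48, 0.44 and 0.47. Extract replicate 1 also had the largest share of its counts on its 100 most abundant genes, at 26.2% against 24.6% and 22.3% in replicates 2 and 3, 25.0% to 25.9% with biochanin A and 20.0% to 21.0% in control, and the part of this in the result was not tested. The coefficient of variation among the extract libraries had a median of 6.78% over the members and 7.07% over all genes of at least 5 CPM. Among the control libraries it was 10.9% for members and 8.16% for all genes, and among the biochanin A libraries 8.08% and 6.48%. The members had a lower median control level than all these genes (19.9 against 40.4 CPM), and the rule used the order of the libraries. The part of either in the spread was not tested.

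For 38 of the 46 members the biochanin A libraries overlapped the control libraries, with log2 ratios of biochanin A over control between -0.23 and 0.10. The other 8 had every biochanin A library below every control library, which was the case for 23.1% of all genes tested. No member had every biochanin A library above every control library, against 22.2% of all genes, since the limit of 0.1 leaves little room for it. By edgeR's quasi-likelihood test, 7 members were called lower with biochanin A than in control, against 18.3% of all genes. Called higher were 0 members, against 16.9% of all genes, and 0 also by DESeq2, by limma voom and at an unadjusted p below 0.05 in each of these tools. The rule used this contrast too, so the counts describe the set and support nothing.

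The 8 genes below control lay on opposite sides of control with the pure compound and the mixture. This held for all 8 group means when scaled by library totals, where every extract library was above the other 6 in 4 of the 8. Over all tested genes, 8 were called higher with extract and lower with biochanin A, and 6 of them were members. The rule and the grouping of these genes used both contrasts, so the opposite sides and this overlap are largely set by the choice. The widest difference was in AgR037_g035, with 34.5, 38.2 and 27.4 CPM in control, 15.3, 13.2 and 13.6 CPM with biochanin A, and 71.1, 54.6 and 56.9 CPM with extract. The 3 groups did not overlap, as in all 8 genes by their choice. The mean of AgR037_g035 with extract was 4.33 times that with biochanin A, the largest such ratio of any member. Its log2 ratios to control were 0.86 with extract and -1.22 with biochanin A.

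AgB05_g010 had 5.08, 8.92 and 7.28 CPM in control, 3.35, 2.85 and 3.59 CPM with biochanin A, and 9.56, 11.2 and 12.7 CPM with extract. Its mean was 3.26 CPM with biochanin A and 7.09 CPM in control (log2 ratio -1.01), and the lowest extract library was only 1.07 times the highest control library. AgR040X_g087 had 16.6, 13.7 and 19.8 CPM in control, 11.7, 9.91 and 8.70 CPM with biochanin A, and 22.6, 21.4 and 22.7 CPM with extract. It was called lower with biochanin A and was not called against control with extract, where its log2 ratio was 0.41.

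AgB06_g152 had tight groups, with 34.5, 32.2 and 31.2 CPM in control, 22.9, 22.6 and 24.5 CPM with biochanin A and 50.5, 47.2 and 51.7 CPM with extract. Its log2 ratios were -0.48 with biochanin A and 0.60 with extract. The other 4 genes below control were closer to it. AgR009X_g023, AgB06_g250, AgB01_g023 and AgR008_g284 had log2 ratios with biochanin A of -0.36, -0.34, -0.29 and -0.17, and with extract of 0.42, 0.36, 0.35 and 0.59.

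**Figure D4:**
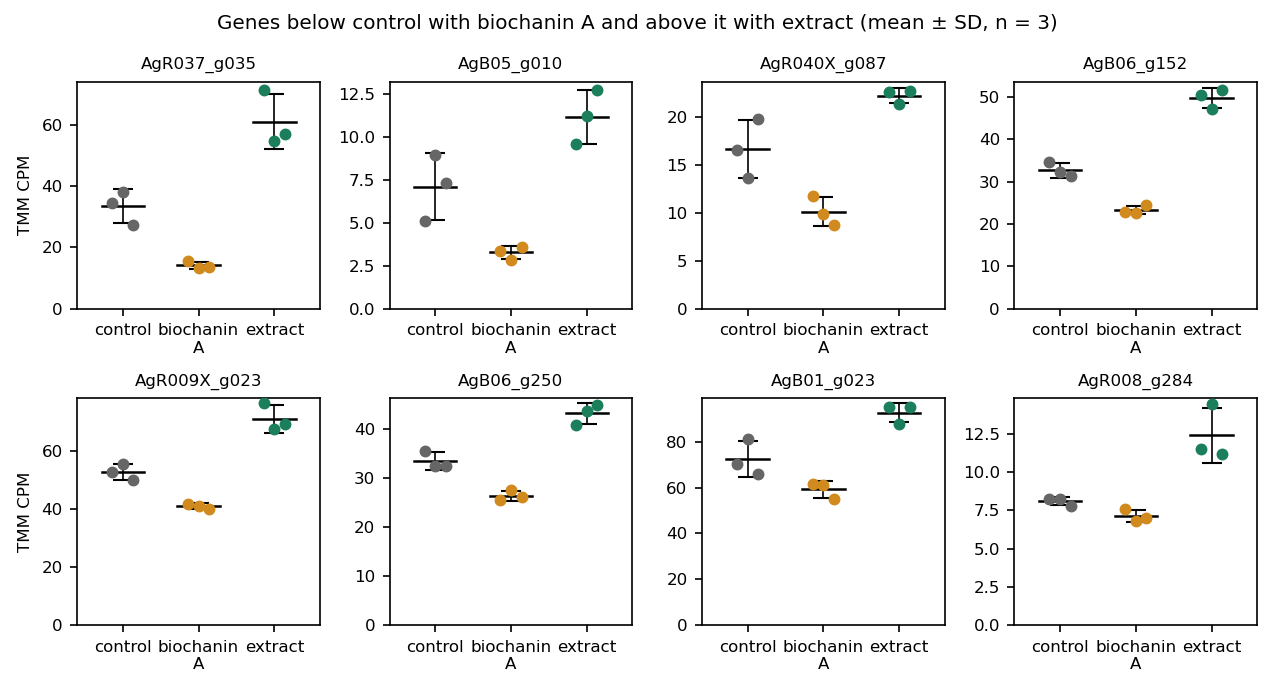
TMM-scaled CPM in every library for the 8 members whose biochanin A libraries all lie below their control libraries, ordered by the log2 ratio with biochanin A; points are libraries, long bars group means and error bars the SD (n = 3). The order runs from AgR037_g035 (log2 ratio -1.22) to AgR008_g284 (-0.17). The 3 groups do not overlap in any panel, as the rule and the choice of these 8 genes require.

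AgR008_g283, AgB04_g164, AgB15X_g087 and AgR009X_g003 had the highest CPM of the members in the extract group, counted per gene and not per gene length. AgR008_g283 had 241, 241 and 236 CPM in control, 249.7, 239 and 228 CPM with biochanin A, and 318, 371 and 365 CPM with extract. The control and biochanin A means were close (239.1 ± 2.8 and 239.0 ± 10.8 CPM), and the extract mean was 1.47-fold that of control. AgB04_g164 had 244, 221 and 237 CPM in control, 222, 236 and 234 CPM with biochanin A, and 260.0, 362 and 371 CPM with extract. Its first extract library came close to the other groups, at 1.06 times the highest control library, so that the extract mean of 331 ± 61.7 CPM rests mainly on replicates 2 and 3. AgR009X_g003 had 110.0, 106.7 and 105.6 CPM in control, 106.9, 118.3 and 104.8 CPM with biochanin A, and 140.3, 138.8 and 134.2 CPM with extract, a 1.28-fold difference from control that is small and uniform.

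Many members were close to the limits of the rule. The lowest extract library was a median of 1.16 times the highest of the other 6 libraries, and for 26 members it was under 1.2 times. That highest other library was a control for 32 members and a biochanin A library for 14. The narrowest gap was in AgB02_g308, whose lowest extract library had 42.4 CPM, as had its highest biochanin A library. At the limit on the extract ratio, AgR022_g195 and AgB01_g023 were just inside and AgR067_g019 and AgR037_g005 just outside, and all 4 had a log2 ratio that rounds to 0.35. At the limit on biochanin A, AgB06_g167 (0.10) and AgB02_g308 (0.09) were inside and AgB08X_g055 and AgR002_g117 (0.10 each) outside, the last with a log2 ratio of 0.56 with extract. At the minimum of 5 CPM, AgR022_g226 and AgR003_g034 were inside, at 5.03 and 5.05 CPM, and AgR045_g077 and AgB07_g119 outside, at 4.80 and 3.15 CPM. A further 11 genes passed every limit on means and were left out because libraries overlapped. Their log2 ratios with extract reached 0.61.

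How far the set depends on single libraries was described by applying the rule with 1 library left out and then looking at that library, with the scaling of all 9 kept. Without extract replicate 1 the rule chose 49 genes, and in 42 of these (85.7%) replicate 1 also lay above all 6 other libraries, against 15.1% of all genes of at least 5 CPM. Without replicate 2 it chose 66 genes, and replicate 2 was above the other 6 in 52 (78.8%, against 10.5%). Without replicate 3 it chose 54, and replicate 3 was above in 49 (90.7%, against 11.4%). The left-out library was thus above the other 6 in most of the genes it had no part in choosing. Its median log2 ratio to control was 0.42, 0.36 and 0.43 for replicates 1, 2 and 3, each below the 0.44, 0.45 and 0.45 of the libraries that chose the genes. Of the genes so chosen, 38, 45 and 41 were among the 46. The control and biochanin A libraries were still those that chose the genes, so these shares are not free of the choice.

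Fewer of the 46 were chosen again when a control library was left out. Without control replicate 1, 2 or 3 the rule chose 49, 44 and 43 genes, of which 34, 28 and 32 were among the 46. The left-out control lay below every extract library in 46, 37 and 40 of them, 84.1% to 93.9%, against 34.1% to 36.4% of all genes. The extract libraries were those that chose the genes, and all genes were not limited to those above control with extract. These shares are therefore largely set by the choice. Leaving out a biochanin A library gave 47 to 49 genes, 40 to 43 of them among the 46.

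Membership depended on the scaling. Scaled by library totals, the rule chose 35 genes, and only 15 of them were among the 46. Under that scaling the median log2 ratio of all 15177 tested genes moved from -0.01 to -0.14 with extract and from -0.01 to -0.20 with biochanin A. The 46 members then had a median of 0.31 with extract, and all 46 stayed above 0. In 32 of them (69.6%) every extract library was above the other 6, against 1.45% of all tested genes, and the rule used this order. The median log2 ratio of the 46 with biochanin A was then -0.23, and every biochanin A library lay below every control library in 21 of the 46 members (45.7%), against 39.5% of all tested genes.

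Some members had consecutive identifiers. The 46 came from 31 identifier prefixes, the part before _g, and 6 of them (13.0%) formed 3 pairs with consecutive numbers, while 54 of the 10155 other genes of at least 5 CPM (0.532%) had a member as neighbour. Those other genes were not limited to genes above control with extract. Positions, lengths and strand are not stated, and reads of overlapping neighbours cannot be told apart. In the pair AgR012_g192 and AgR012_g193 both genes had a like profile, within groups too. AgR012_g192 had 26.3, 35.7 and 21.7 CPM in control, 30.1, 31.3 and 22.7 CPM with biochanin A and 42.1, 41.5 and 43.3 CPM with extract. AgR012_g193 had 20.0, 31.8 and 17.3 CPM in control, 27.7, 25.2 and 20.7 CPM with biochanin A and 37.8, 37.1 and 39.4 CPM with extract. In both, replicate 2 was the highest control, replicate 3 the lowest biochanin A library and replicate 3 the highest extract library.

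AgB02_g231 and AgB02_g232 were a second pair of this kind. AgB02_g231 had 4.86, 8.80 and 6.60 CPM in control, 7.11, 5.74 and 7.27 CPM with biochanin A and 13.7, 11.2 and 10.8 CPM with extract. AgB02_g232 had 9.89, 15.7 and 10.9 CPM in control, 11.3, 11.1 and 12.6 CPM with biochanin A and 27.0, 20.4 and 20.7 CPM with extract. Control replicate 2 and extract replicate 1 were the highest of their groups in both genes. In the third pair, AgR008_g283 and AgR008_g284, the biochanin A ratios were 0.00 and -0.17 and the extract ratios 0.55 and 0.59, and extract replicate 2 was highest in both. The AgB02 and AgR008 pairs each adjoined a gene kept out only by the limit on biochanin A. AgB02_g230 had log2 ratios of 0.63 with extract and 0.22 with biochanin A, and AgR008_g285 of 0.59 and 0.15.

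Genes beside the members that were not members themselves were looked at after the values had been seen. Of 83 such genes 54 had at least 5 CPM with extract, and 14 of these (25.9%) had a log2 ratio with extract of at least 0.35, against 9.09% of the other genes at that level. Their log2 ratios with biochanin A ran from 0.15 to 1.07. That all 14 lay above the limit of 0.1 is largely set by the choice, since most genes at this level with extract and at or below 0.1 were members. Over all genes, 46 such genes were members and 11 were left out because libraries overlapped. Scaled by library totals, 11 of the 14 were positive and the lowest was -0.06. Counting these genes and members together, 17 of the 46 members (37.0%) had a neighbour of at least 5 CPM at or above 0.35 with extract, against 11.6% of the other genes of at least 5 CPM. The members are all above control with extract, while the other genes were not limited to such genes. Whether these shares are particular to the members was therefore not tested.

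AgR037_g036, next to AgR037_g035, had 20.9, 20.5 and 25.7 CPM in control, 41.5, 53.8 and 46.6 CPM with biochanin A and 78.5, 85.9 and 92.4 CPM with extract. The log2 ratios with biochanin A were 1.07 for AgR037_g036 and -1.22 for AgR037_g035, and those with extract 1.91 and 0.86. AgR001_g110, next to AgR001_g109, had 83.5, 78.4 and 82.3 CPM in control, 106.5, 100.4 and 104.8 CPM with biochanin A and 168, 160.0 and 153 CPM with extract. Its log2 ratio was 0.97 with extract and 0.35 with biochanin A, and the latter alone kept it out of the set. Differences with biochanin A between a member and such a neighbour are therefore in part set by the rule.

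The identifiers AgB05_g007 to AgB05_g011 held 2 members among 5 genes above control with extract. The log2 ratios with extract were 1.09 for AgB05_g007, 0.91 for AgB05_g008, 0.97 for AgB05_g009, 0.62 for AgB05_g010 and 0.47 for AgB05_g011. With biochanin A they were 0.26, 0.05, 0.70, -1.01 and 0.80. The 5 genes thus shared the direction with extract and spread over both directions with biochanin A. For the 2 members the rule set the direction with extract and the limit on biochanin A. The stretch was named after the values were seen, so both patterns are in part set by the choice. Every extract library was above every control library in each of the 5, and in 4 of the 5 when scaled by library totals. With that scaling 3 of the 5 were above control with biochanin A, in place of 4.

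**Figure D5:**
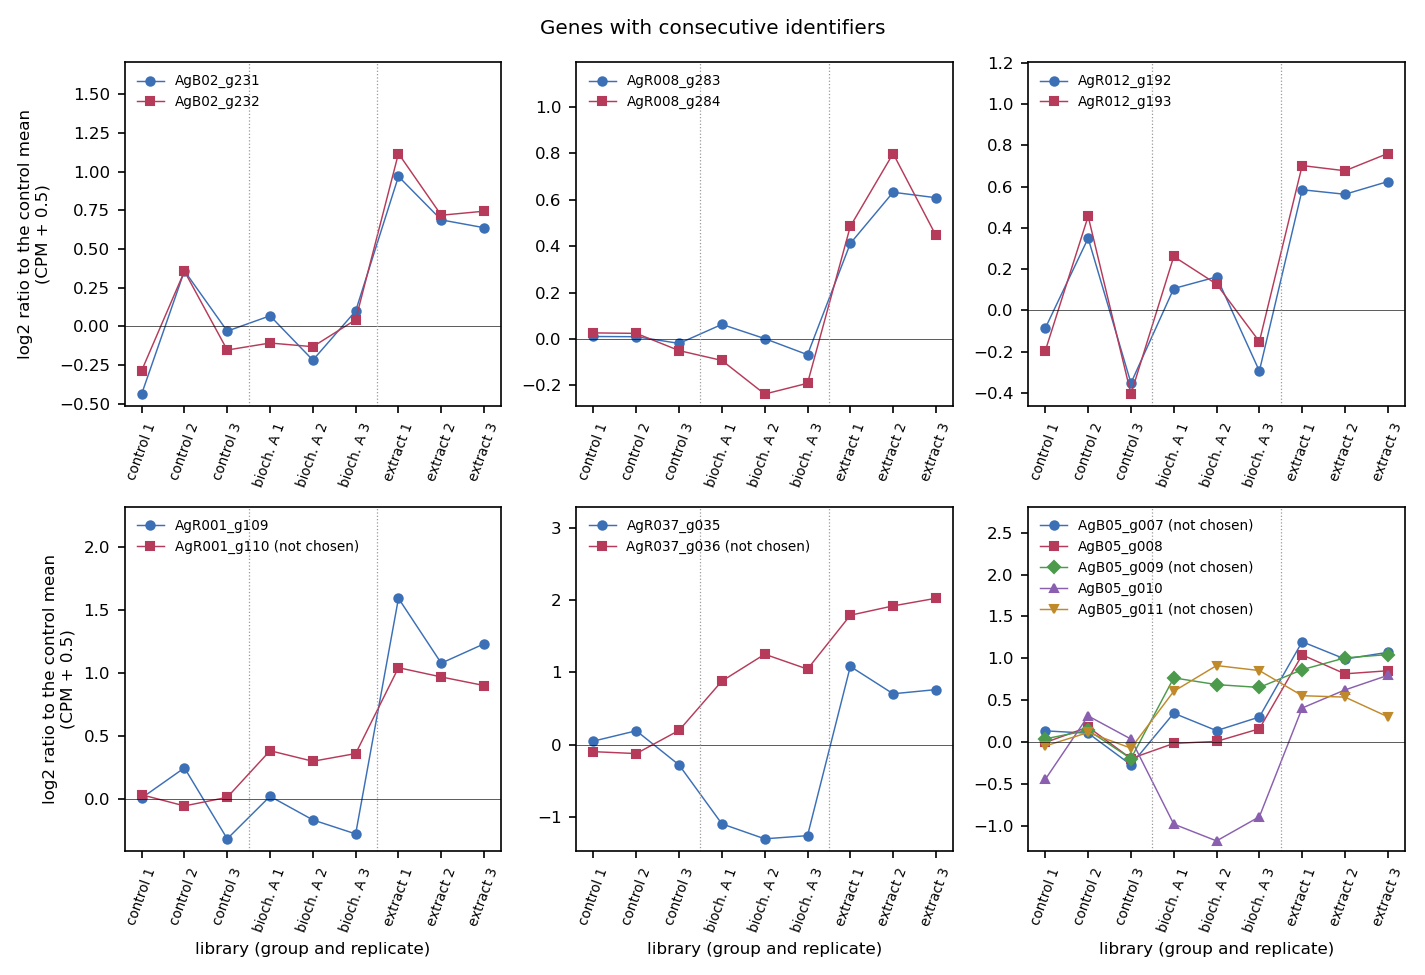
Log2 ratio of each library to the control mean (CPM plus 0.5) for genes with consecutive identifiers: the 3 pairs of chosen genes in the upper row, and in the lower row AgR001_g109, AgR037_g035 and the stretch AgB05_g007 to AgB05_g011 with neighbours that were not chosen. Lines only guide the eye; the AgB02 and AgR012 pairs have much the same profile over the libraries, while AgR037_g035 and AgR037_g036 lie on opposite sides of control with biochanin A (-1.22 and 1.07) and above it with extract.

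By form of identifier, 21 members began AgR with no X (45.7%, against 52.2% of the 10201 genes of at least 5 CPM), 17 began AgB with no X (37.0%, against 27.2%), 6 began AgR with an X after the number (13.0%, against 15.0%) and 2 began AgB with an X (4.35%, against 5.59%). The meaning of these letters was not stated. At most 3 members shared a prefix, in AgB02, AgB05, AgB06, AgR008 and AgR012.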

How the data were processed

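RNA sequencing of whole Ascaris suum larvae gave 9 libraries in 3 groups, assigned from the sample titles. The table the authors deposited holds unnormalized read counts for each gene and library, per the file headers and the whole-number values. The submitters' processing notes list DESeq2 and no role for it. No aligner, counter or strandedness is given in the sources used here. The sheet name points to an annotation labelled WBPS19. Columns were matched through library names, with 0 columns left without a sample.

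TMM factors over all genes (edgeR 4.0.16, R 4.3.3) gave the CPM of the rule. Tests used edgeR's quasi-likelihood F test with filterByExpr (15177 genes), 1 model over 3 groups, 6 residual degrees of freedom, and Benjamini-Hochberg adjustment at 0.05; the code was checked on simulated data. DESeq2 1.42.0 and limma 3.58.1 were alternatives. Members and lists were chosen with earlier results of these data known. Named genes are the 8 members of largest ratio with extract, the 4 of highest extract CPM, the 4 lowest with biochanin A, the 4 of largest ratio among those level with control under biochanin A, and those next to each limit; neighbours were named after their values were seen. Gene lists by product were not used, since identifiers have no products here. Between libraries of the same replicate number, correlations of deviations were between -0.07 and 0.07. This does not settle whether the replicates were paired, and the main tests used no replicate block.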

Additional observations from a re-analysis of the deposited data

How the results depend on the processing

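A number of genes that stayed within 1.5 times of the reported one does not mean the same genes. The rule chose 35 genes with library totals, 31 with a pseudocount of 5 CPM, 48 with none and 45 with DESeq2 size factors, and 15, 25, 45 and 43 of these were among the 46. No median ratio changed sign, which the choice of genes by that ratio nearly ensures. The rule chose 16 genes with a log2 ratio with extract of at least 0.58, 2 with at least 1 and 29 with a biochanin A limit of 0, by construction. The median log2 ratio of the 46 members was 0.31 with library totals and 0.39 with a pseudocount of 5 CPM. With library totals 15 members (32.6%), in place of 7, were called lower with biochanin A, as were 34.2% of all tested genes. Under that scaling 23 members, in place of 34, were called higher with extract than with control, and 38, in place of 34, than with biochanin A. At an adjusted p below 0.01 and with TMM scaling these 2 counts were 26 and 27. The shares of all tested genes at these settings are not given here, and the rule used both contrasts. With a replicate block, 34, 34, 7 and 0 members were called, as without it. Leaving out 1 library gave 43 to 66 chosen genes, 28 to 45 of them among the 46 (66 without extract replicate 2). It gave a median ratio of 0.45 to 0.52, 28 to 34 members called against control, 27 to 36 against biochanin A, 6 to 7 lower with biochanin A and 0 to 1 higher. The 1 was AgR012_g193 without control replicate 2. The cause was not tested. Depth limits the members of few reads most: 58 to 262 reads per library for AgR003_g034.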
